A study of Homo sapiens with 4 samples.

Results

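The genes described here are 39 human genes of the lysosome. They comprise 3 transcription factors (TFEB, TFE3 and MITF), 5 membrane proteins (LAMP1, LAMP2, CD63, SCARB2 and MCOLN1), 7 proteases (CTSA, CTSB, CTSD, CTSH, CTSL, CTSZ and TPP1), 6 glycosidases of glycoproteins, glycolipids and glycogen (GLA, GLB1, GAA, HEXA, NEU1 and MANBA), 5 enzymes of glycosaminoglycan degradation (GUSB, IDUA, NAGLU, SGSH and ARSB), 6 proteins of lipid degradation (ASAH1, PSAP, LIPA, SMPD1, PPT1 and ARSA), progranulin (GRN) and 6 components of the V-ATPase (ATP6V0D1, ATP6V0E1, ATP6V1A, ATP6V1B2, ATP6V1H and ATP6AP1). They were selected by symbol, without a rule on measured values, but with earlier results of these data known. Counts of calls among them therefore describe a list that was not chosen independently of the data. All 39 were found among the 19475 symbols of the expression table. A wider list of 143 other genes of the lysosome, of enzyme delivery and of TFEB control, also chosen with earlier results known, was analyzed beside them.

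Lysosomes are acidic organelles in which proteins, glycans, lipids and nucleic acids are broken down. Their soluble hydrolases are made in the endoplasmic reticulum and are mostly delivered by mannose 6-phosphate receptors, and the V-ATPase pumps protons into the lumen, with a V1 sector that hydrolyzes ATP and a V0 sector that conducts protons. TFEB, TFE3 and MITF are related transcription factors that bind E-box sequences, among them the CLEAR element in promoters of lysosomal genes. mTORC1, a kinase complex recruited to the lysosomal surface by Rag GTPases, phosphorylates TFEB and holds it in the cytoplasm, so that the amount of TFEB mRNA is not a measure of its activity. Cancer cells use lysosomes to recycle nutrients taken up from outside or by autophagy, and several cathepsins are also secreted.

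RNA-seq was performed on the human ovarian cancer line SKOV3 to compare cells on a tissue culture plate (TCP) with tumor spheroids on polymer X, a polymer thin film. The labels give 2 libraries from TCP at day 0 and 2 libraries from polymer X at day 8, with the same cell line and no other treatment in either group. Per the study's methods, spheroids were grown with serum replacement and dissociated with accutase during culture, whereas stock cells were kept in fetal bovine serum. The labels give serum replacement for all 4 libraries, so the medium of the TCP cells is uncertain. Effects of substrate and of days in culture cannot be told apart, since each group has its own of both. Nothing in the labels says that the 2 libraries of a group came from separate cultures, so the p-values measure only the spread between these samples, which may be technical.

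Levels are FPKM values as deposited by the authors for RefSeq transcripts of the hg19 build, in which tags are scaled to transcript length and to the total tags of the library. From the spacing of low values, the 2 TCP libraries hold 38403000 and 44916000 tags and the 2 polymer X libraries 40025000 and 40684000. The sources used here do not say whether a tag is a read or a read pair. For a transcript of 2000 bases, 3 tags then correspond to an FPKM of 0.0334 to 0.0391. A gene entered the test when 2 or more libraries reached an FPKM of 1; limma was then run on log2(FPKM + 1), and p-values were adjusted by the Benjamini-Hochberg method over all 11964 tested genes. Fold changes are given on this log2 scale as polymer X minus TCP, where the added 1 shrinks changes of weakly expressed genes, or as ratios of mean FPKM where so named. A gene was called at an adjusted p under 0.05 with a log2 fold change of at least 1 in either direction. "Rose" and "fell" below refer to an adjusted p under 0.05, with or without this fold minimum.

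Promoters are shown because TFEB, TFE3 and MITF are known to act through short promoter sequences. RefSeq promoters of the GRCh38.p14 build, from 250 bases before to 50 bases after a gene's start, were matched by symbol for 26 of the 39 genes. They were searched on both strands for TCACGTGA, the core of the CLEAR element, for TCATGTGA, the core of the M-box, and for CACGTG, the E-box that TCACGTGA contains. TCACGTGA was found in 5 genes (GAA, CTSA, LAMP1, MCOLN1 and ATP6V0D1), that is, in 19.2% of those matched, and in 2.31% of the 9551 tested genes with a promoter. TCATGTGA was found in 4 genes (CD63, TPP1, PPT1 and GRN), or 15.4% against 1.2% of the tested genes. CACGTG was found in 9 genes, the 5 with TCACGTGA and also CD63, CTSD, NEU1 and ARSB, or 34.6% against 12.5%. Counted per promoter, of which some genes had several, TCACGTGA was in 5 of 41 promoters of the 39 genes and in 0.98% of all 35116 promoters, TCATGTGA in 4 of 41 and in 1% of all, and CACGTG in 9 of 41 and in 7.26% of all. The sequences below are the promoters with TCACGTGA and those of CTSD, TPP1 and GRN, which are members called higher with 1 promoter and another of these motifs. Capitals mark every match, and TCACATGA is TCATGTGA read on the other strand.
GAA: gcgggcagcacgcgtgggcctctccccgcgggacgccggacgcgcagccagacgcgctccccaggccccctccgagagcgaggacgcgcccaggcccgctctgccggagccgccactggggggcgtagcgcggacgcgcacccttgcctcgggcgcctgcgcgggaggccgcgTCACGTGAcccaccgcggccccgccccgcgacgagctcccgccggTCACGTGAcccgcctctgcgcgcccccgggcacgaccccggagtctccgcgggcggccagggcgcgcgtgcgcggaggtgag
CTSA: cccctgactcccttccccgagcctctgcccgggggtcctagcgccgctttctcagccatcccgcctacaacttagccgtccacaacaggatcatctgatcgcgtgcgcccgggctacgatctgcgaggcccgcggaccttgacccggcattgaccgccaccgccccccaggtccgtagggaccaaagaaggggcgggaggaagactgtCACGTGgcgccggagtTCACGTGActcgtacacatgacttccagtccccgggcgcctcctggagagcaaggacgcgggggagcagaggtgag
LAMP1: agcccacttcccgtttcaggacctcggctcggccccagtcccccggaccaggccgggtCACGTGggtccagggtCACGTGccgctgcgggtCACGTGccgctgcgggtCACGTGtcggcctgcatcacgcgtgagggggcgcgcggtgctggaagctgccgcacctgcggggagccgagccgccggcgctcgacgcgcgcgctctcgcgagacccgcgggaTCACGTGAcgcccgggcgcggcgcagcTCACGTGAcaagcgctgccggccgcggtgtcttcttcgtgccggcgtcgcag
MCOLN1: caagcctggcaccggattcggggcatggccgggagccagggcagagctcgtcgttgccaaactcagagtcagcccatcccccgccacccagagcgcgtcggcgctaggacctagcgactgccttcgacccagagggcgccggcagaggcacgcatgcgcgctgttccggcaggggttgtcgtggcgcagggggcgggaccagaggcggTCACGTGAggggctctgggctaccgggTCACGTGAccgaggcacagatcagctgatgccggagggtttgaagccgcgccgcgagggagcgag
ATP6V0D1: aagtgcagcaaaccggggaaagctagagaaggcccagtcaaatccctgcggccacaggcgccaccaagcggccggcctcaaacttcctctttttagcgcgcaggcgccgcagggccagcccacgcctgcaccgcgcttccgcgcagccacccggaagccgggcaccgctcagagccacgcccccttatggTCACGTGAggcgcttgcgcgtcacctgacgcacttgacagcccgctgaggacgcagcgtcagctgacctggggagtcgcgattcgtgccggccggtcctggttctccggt
CTSD: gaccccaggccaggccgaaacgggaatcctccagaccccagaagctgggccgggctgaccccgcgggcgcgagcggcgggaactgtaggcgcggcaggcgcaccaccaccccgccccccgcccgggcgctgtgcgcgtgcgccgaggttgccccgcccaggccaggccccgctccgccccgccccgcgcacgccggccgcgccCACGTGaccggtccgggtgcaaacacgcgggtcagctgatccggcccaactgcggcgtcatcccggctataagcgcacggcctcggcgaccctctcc
TPP1: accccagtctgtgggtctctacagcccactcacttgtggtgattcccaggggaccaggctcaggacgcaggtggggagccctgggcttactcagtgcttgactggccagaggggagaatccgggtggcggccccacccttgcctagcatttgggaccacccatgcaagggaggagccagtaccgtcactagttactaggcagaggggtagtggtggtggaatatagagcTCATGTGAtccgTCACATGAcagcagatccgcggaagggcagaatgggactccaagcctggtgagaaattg
GRN: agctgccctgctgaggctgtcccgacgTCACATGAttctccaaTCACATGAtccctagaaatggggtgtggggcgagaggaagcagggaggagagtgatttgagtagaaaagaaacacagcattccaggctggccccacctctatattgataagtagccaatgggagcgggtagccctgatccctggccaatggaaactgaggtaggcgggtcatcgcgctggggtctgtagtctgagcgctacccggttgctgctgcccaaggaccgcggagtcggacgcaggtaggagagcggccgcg
These promoters lie at chr17:80101331-80101630 on the plus strand for GAA, chr20:45891085-45891384 on the plus strand for CTSA, chr13:113296989-113297288 on the plus strand for LAMP1, chr19:7522374-7522673 on the plus strand for MCOLN1, chr16:67481108-67481407 on the minus strand for ATP6V0D1, chr11:1763878-1764177 on the minus strand for CTSD, chr11:6619373-6619672 on the minus strand for TPP1 and chr17:44345052-44345351 on the plus strand for GRN. In GAA, the 2 copies of TCACGTGA begin 77 and 32 bases before the start. CTSA has 1 copy, which begins 26 bases before the start, and a separate CACGTG. In LAMP1, copies begin 29 and 2 bases before the start, and 4 further CACGTG letters stand upstream. In MCOLN1 they begin 42 and 15 bases before the start, and in ATP6V0D1 the copy begins 60 bases before it. The TCATGTGA matches of TPP1 begin 21 and 9 bases before the start, whereas those of GRN begin 223 and 207 bases before it. These matches describe letters in a window and are not evidence of binding.

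Of the 39 genes, 11 were called higher (GAA, GRN, CTSD, IDUA, TPP1, HEXA, CTSA, PSAP, SGSH, MANBA and CD63), against 10.7% of all tested genes. MITF alone was called lower, against 9.45% of all tested genes. Without the fold minimum, 25 genes rose and 6 fell, against 37.4% and 43.6% of all tested genes. The 2 polymer X libraries lay above both TCP libraries for 27 of the 39 genes and below both for 9, against 41.9% and 48.4% of all tested genes. The median log2 fold change was 0.57 over the 38 tested genes and -0.06 over all tested genes, and the latter was -0.20 with a mean FPKM of at least 5 and 0 with no filter. IDUA passed the filter on low values through the polymer X libraries only, and without it the median was 0.57. NEU1 did not pass the filter and was not tested. With 2 libraries on each side, exact permutation reaches no p under 0.333, and the limma p-values below depend on variance pooled over genes.

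**Figure D1:**
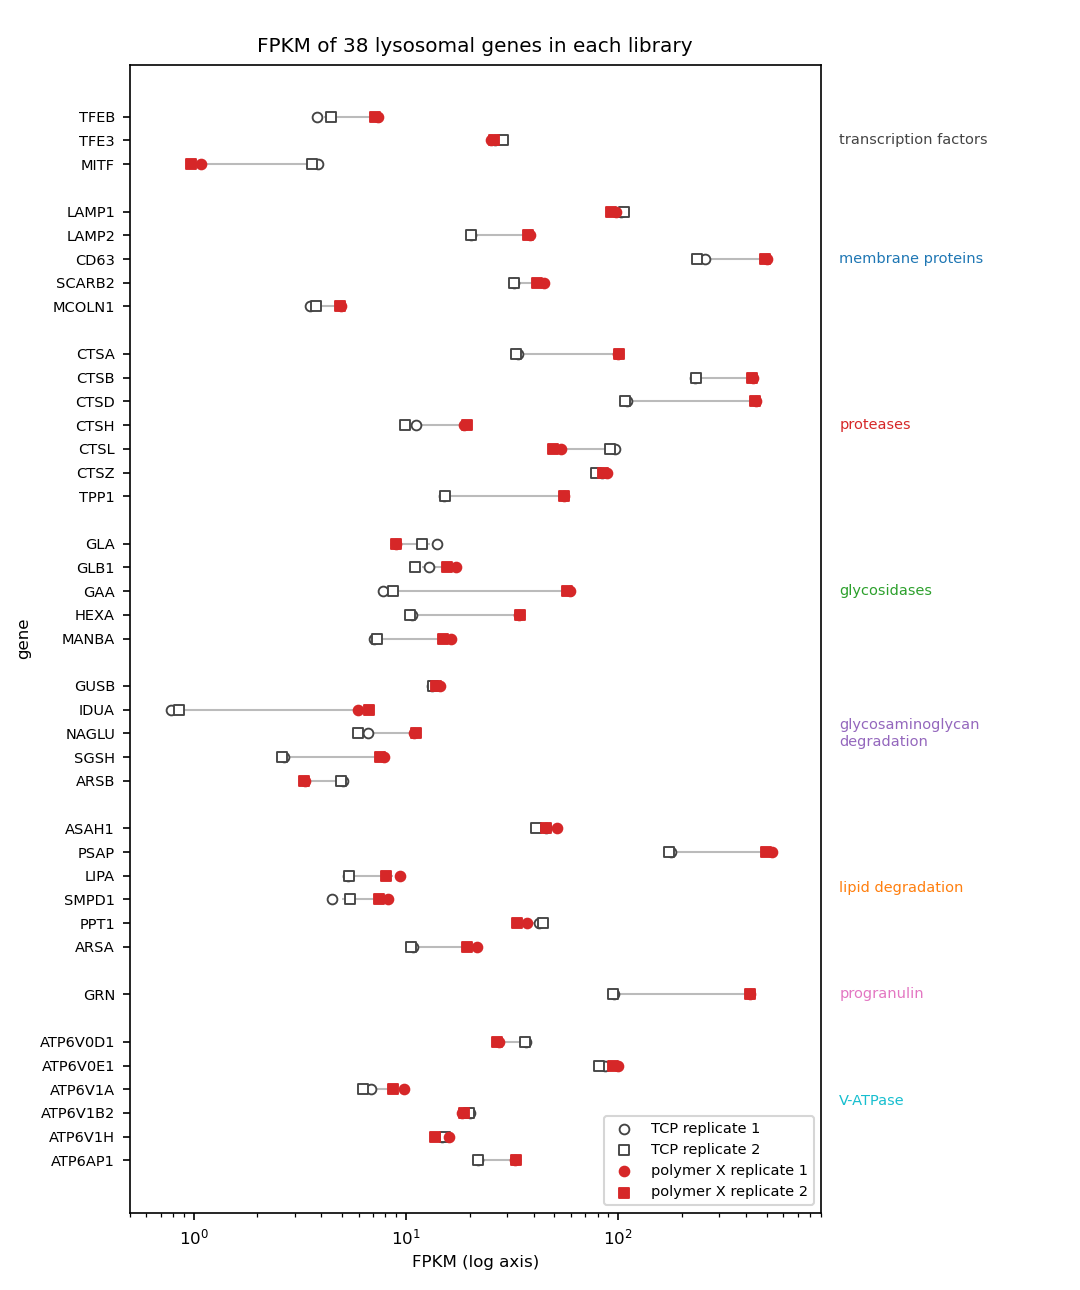
FPKM of the 38 tested genes in each of the 4 libraries, on a log axis and grouped by role, with open symbols for TCP and filled symbols for polymer X, and a grey line between the 2 group means. Replicates lie close together, and the widest gaps between groups are those of IDUA, GAA, GRN, CTSD and TPP1, and of MITF in the other direction.

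Summed over the 39 genes, FPKM was 1682 and 1635 in the TCP libraries and 3367 and 3283 in the polymer X libraries. The sums were 1658 ± 33.0 on TCP and 3325 ± 59.8 on polymer X (SD, n = 2), a ratio of 2.01. As a share of the FPKM summed over all symbols, the 39 genes took 0.536% and 0.539% on TCP and 1.21% in each polymer X library. Proteases contributed most in every library, with a sum of 574 ± 9.70 on TCP and 1183 ± 10.2 on polymer X. Lipid degradation, which contains PSAP, went from 284 ± 3.70 to 634 ± 30.1, and the V-ATPase components from 184 ± 4.57 to 200 ± 5.48 (SD, n = 2). A few abundant genes therefore carried these sums, which are given as a description without a test.

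**Figure D2:**
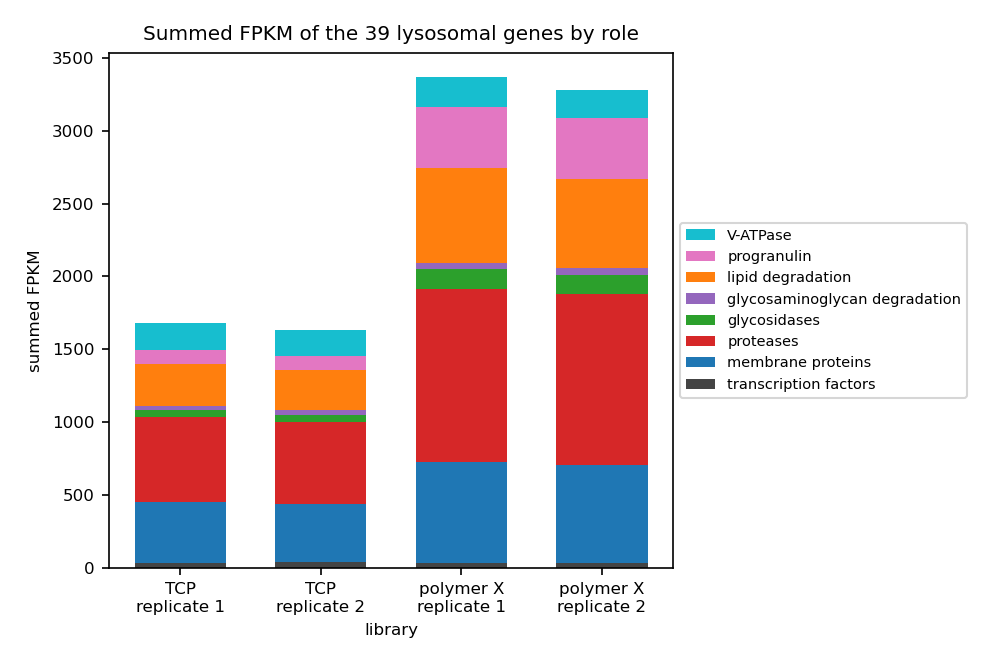
Summed FPKM of the 39 genes in each library, stacked by role. The polymer X bars reach 3367 and 3283, against 1682 and 1635 on TCP, and the transcription factor and V-ATPase segments differ least between the groups, with ratios of 0.958 and 1.09.

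Among the transcription factors, TFEB rose and MITF fell. TFEB mRNA had an FPKM of 3.81 and 4.46 in the TCP libraries and 7.37 and 7.15 in the polymer X libraries. Both polymer X values lay above both TCP values, and the log2 fold change was 0.69 with a standard error of 0.08 (adjusted p = 3.1e-05), under the fold minimum. TFE3, the most abundant of the 3, had values of 26.4 and 28.5 on TCP and of 25.1 and 26.1 on polymer X. Its log2 fold change of -0.10 did not pass the test (adjusted p = 0.16, 95% interval -0.24 to 0.04), and its sign turned to 0.13 with quantile normalization. The log2 fold change of TFE3 was -0.15 without TCP replicate 1 and -0.05 without TCP replicate 2. MITF fell, with FPKM values of 3.87 and 3.62 on TCP and of 1.08 and 0.971 on polymer X. Its log2 fold change was -1.23 with a standard error of 0.08 (adjusted p = 6.1e-07), and the mean FPKM on TCP was 3.65 times that on polymer X. MITF has 13 transcripts in the table, whose log2 fold changes ran from -1.23 to -0.50. The FPKM ratio of TFE3 to TFEB was 6.93 and 6.40 on TCP and 3.40 and 3.65 on polymer X.

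Among the membrane proteins, LAMP1 and LAMP2 are the abundant glycoproteins that line the lysosomal membrane. LAMP1 had an FPKM of 103 and 106 on TCP and of 98.1 and 92.9 on polymer X. Its log2 fold change of -0.13 did not pass the test (adjusted p = 0.053), and it was 0.21 with quantile normalization, in the opposite direction. LAMP1 had an adjusted p under 0.05 as higher in that setting, and as lower with the replicate number as a block and without polymer X replicate 1. LAMP2 rose from 20.3 and 20.2 to 38.3 and 37.7, with a log2 fold change of 0.88 and a standard error of 0.05 (adjusted p = 4.2e-07). The mRNAs of these 2 partner proteins thus differed in their values, and the difference between them was not tested. CD63, a tetraspanin of late endosomes and exosomes, was the most abundant of the 39 genes on TCP and had FPKM values of 258 and 236 there against 504 and 494 on polymer X. Its log2 fold change of 1.01 with a standard error of 0.07 (adjusted p = 7.1e-07) lay just past the fold minimum, and was 0.95 without TCP replicate 2, which ended the call. MCOLN1, the lysosomal cation channel TRPML1, had low values of 3.54 and 3.76 on TCP and of 4.97 and 4.89 on polymer X. It rose by 0.35 on the log2 scale (standard error 0.07, adjusted p = 0.0013). SCARB2, the receptor that carries glucocerebrosidase to the lysosome, rose by 0.41, and by 0.68 with quantile normalization.

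Of the 7 proteases, 3 were called higher, against 10.7% of all tested genes. CTSD encodes the aspartic protease cathepsin D (NM_001909, chr11:1773982-1785222 of hg19, minus strand). Its FPKM was 110 and 108 on TCP and 444 and 441 on polymer X, with no overlap between groups. This was a log2 fold change of 2.01 with a standard error of 0.06 (adjusted p = 4.5e-09) and a ratio of means of 4.06. TPP1, tripeptidyl peptidase 1, had FPKM values of 15.0 and 15.2 on TCP and of 55.6 and 55.7 on polymer X. The replicates of TPP1 were nearly alike, and its log2 fold change was 1.81 with a standard error of 0.05 (adjusted p = 5.4e-09). CTSA, the carboxypeptidase that also protects beta-galactosidase and neuraminidase, had values of 33.7 and 33.0 on TCP and of 99.9 and 101 on polymer X. It rose by 1.56 (standard error 0.05, adjusted p = 1.1e-08). CTSA shares exon bases with 2 genes on the opposite strand that also had higher values on polymer X, PLTP and NEURL2, as given below.

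The cysteine cathepsins did not move as a block. CTSB, cathepsin B, had FPKM values of 230 and 231 on TCP and of 429 and 425 on polymer X. Its log2 fold change was 0.88 with a standard error of 0.06 (adjusted p = 7.4e-07), under the fold minimum, and was 1.26 with quantile normalization, under which it was called. CTSL, cathepsin L, fell from 96.9 and 91.1 on TCP to 53.6 and 49.2 on polymer X. Its log2 fold change was -0.86 with a standard error of 0.06 (adjusted p = 1.4e-06), and it was -0.53 with quantile normalization. CTSL shares sequence with its close paralog CTSV, a gene named here after its values were seen, which had FPKM values of 2.34 and 2.22 on TCP and of 0.940 and 1.09 on polymer X. How the authors' counting treated reads that map to several places is not given in the sources used here, so values of such genes are uncertain. CTSH, an aminopeptidase, rose by 0.80, and CTSZ, a carboxypeptidase, had a log2 fold change of 0.09 that did not pass the test (adjusted p = 0.17). CTSZ passed with quantile normalization, at 0.43, and with scaling to a common median. Its log2 fold change was 0.14 without TCP replicate 1 and 0.04 without TCP replicate 2. In FPKM, CTSD was 1.13 and 1.19 times the level of CTSL in the TCP libraries and 8.28 and 8.95 times that level in the polymer X libraries. Relative to CTSB, the level of CTSD was 0.476 and 0.467 times on TCP and 1.03 and 1.04 times on polymer X. The order of the 3 cathepsins thus changed from CTSB, CTSD and CTSL, of which the last 2 were close, to CTSD and CTSB at nearly the same level and CTSL well below them.

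The glycosidases contained the gene with the largest log2 fold change of the 38 tested genes. GAA encodes acid alpha-glucosidase, which degrades lysosomal glycogen (NM_001079804, chr17:78075325-78093681 of hg19, plus strand). Its FPKM was 7.80 and 8.71 on TCP and 59.3 and 57.3 on polymer X, so the groups were far apart relative to their replicates. The log2 fold change was 2.68 with a standard error of 0.07 (adjusted p = 2.1e-09), the ratio of means was 7.06, and 99.0% of tested genes had a lower log2 fold change. HEXA, the alpha subunit of beta-hexosaminidase, which degrades GM2 ganglioside, rose from 10.6 and 10.4 to 34.0 and 34.4. Its log2 fold change was 1.61 with a standard error of 0.06 (adjusted p = 1.2e-08). MANBA, lysosomal beta-mannosidase, had FPKM values of 7.07 and 7.32 on TCP and of 16.2 and 15.0 on polymer X. The log2 fold change of MANBA was 1.02 with a standard error of 0.07 (adjusted p = 5.8e-07). It was 0.97 without polymer X replicate 1 and fell under 1 also without TCP replicate 1, and either ended the call. GLA, alpha-galactosidase A, fell by 0.48 on the log2 scale and GLB1, beta-galactosidase, rose by 0.43, both under the fold minimum, and GLB1 did not pass with no filter.

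NEU1, the lysosomal neuraminidase, was listed at 0 in both TCP libraries and in polymer X replicate 1, and at 0.024 in polymer X replicate 2. The table places NEU1 on an alternative haplotype of chromosome 6, in 8 copies. Of the 130 symbols placed on such haplotypes, 85.4% had a mean FPKM under 1, against 39.8% of the 19345 other symbols. The listed value is therefore not read as the level of NEU1 in these cells.

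Of the 5 genes of glycosaminoglycan degradation, 3 rose and 1 fell, against 37.4% and 43.6% of all tested genes. IDUA encodes alpha-L-iduronidase, which acts on heparan and dermatan sulfate (NM_000203, chr4:980785-998345 of hg19, plus strand). It had FPKM values of 0.782 and 0.851 on TCP and of 5.98 and 6.69 on polymer X. These values rest on 66 and 84 tags on TCP and 526 and 598 on polymer X. The log2 fold change was 2.01 with a standard error of 0.08 (adjusted p = 3.1e-08), and the ratio of means was 7.76. IDUA had to be high on polymer X to enter the test. SGSH, heparan N-sulfatase, rose from 2.68 and 2.61 to 7.93 and 7.57, with a log2 fold change of 1.26 and a standard error of 0.07 (adjusted p = 2.1e-07). NAGLU, alpha-N-acetylglucosaminidase of the same pathway, rose by 0.73. GUSB, beta-glucuronidase, which also acts on heparan sulfate, had a log2 fold change of 0.08 that did not pass the test (adjusted p = 0.21) but passed with quantile normalization, at 0.23. ARSB, the sulfatase of dermatan and chondroitin sulfate, fell by 0.47.

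For lipid degradation, PSAP led in level and in change. PSAP encodes prosaposin, the precursor of the saposins that assist sphingolipid hydrolases (NM_001042466, chr10:73576040-73611132 of hg19, minus strand). Its FPKM was 177 and 174 on TCP and 528 and 499 on polymer X, where it was the most abundant of the 39 genes by group mean. The log2 fold change was 1.54 with a standard error of 0.06 (adjusted p = 2.9e-08) and the ratio of means 2.92. ARSA, arylsulfatase A, which together with a saposin degrades sulfatide, rose by 0.88. At the fold minimum of 1, it was called only with quantile normalization, where its log2 fold change was 1.02. LIPA, lysosomal acid lipase, rose by 0.61 and SMPD1, acid sphingomyelinase, by 0.57. ASAH1, acid ceramidase, had a log2 fold change of 0.15 with overlapping libraries (adjusted p = 0.093). Over the alternatives, the log2 fold change of ASAH1 ran from 0.07 to 0.46. Its adjusted p was under 0.05 with quantile normalization, where it was at 0.46, with median scaling, with the replicate number as a block, and without TCP replicate 1 or polymer X replicate 2. PPT1, palmitoyl-protein thioesterase 1, fell by 0.29, a change of 0.01 with quantile normalization, lost its adjusted p with no filter, and shares many exon bases with a more abundant gene, as given below.

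GRN encodes progranulin, a secreted protein that is also carried to lysosomes, partly together with prosaposin, and is cleaved there into granulins (NM_002087, chr17:42422454-42430474 of hg19, plus strand). Its FPKM was 95.6 and 94.2 on TCP and 417 and 420 on polymer X. The polymer X values stood far above the TCP values and the replicates differed little within either group. The log2 fold change was 2.13 with a standard error of 0.06 (adjusted p = 3.1e-09), and the ratio of means was 4.41. Relative to LAMP1 in the same library, GRN was at 0.924 and 0.888 times its FPKM on TCP and at 4.25 and 4.52 times on polymer X.

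None of the 6 V-ATPase components was called with limma, against 10.7% and 9.45% of all tested genes called higher and lower. Of the 6, 3 rose and 1 fell, against 37.4% and 43.6%, and 4 had an unadjusted p under 0.05, against 82.0% of all tested genes. ATP6AP1, an accessory subunit of the pump, had FPKM values of 21.9 and 21.8 on TCP and of 32.7 and 33.0 on polymer X. It had the largest absolute log2 fold change of the 6, at 0.57 with a standard error of 0.05 (adjusted p = 8e-06). ATP6V1A, the catalytic subunit of the V1 sector, rose by 0.44, and ATP6V0E1 of the V0 sector by 0.21. The adjusted p of ATP6V0E1 was not under 0.05 without TCP replicate 2 or with no filter, and its log2 fold change was 0.56 with quantile normalization. ATP6V0D1, which joins the V0 and V1 sectors, fell by 0.42, and by 0.16 with quantile normalization. ATP6V1B2 and ATP6V1H had log2 fold changes of -0.10 and -0.02 that did not pass the test (adjusted p = 0.13 and 0.82), and values of 0.09 and 0.14 with quantile normalization. With no filter, ATP6V1B2 had an adjusted p under 0.05 as lower. The median log2 fold change of the 6 was 0.09, against 0.88 for the 7 proteases and 1.02 for the 5 tested glycosidases. It was 0.30 for the V-ATPase with quantile normalization, where the proteases were at 1.26, and 0.04 without polymer X replicate 1 and 0.16 without polymer X replicate 2.

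**Figure D3:**
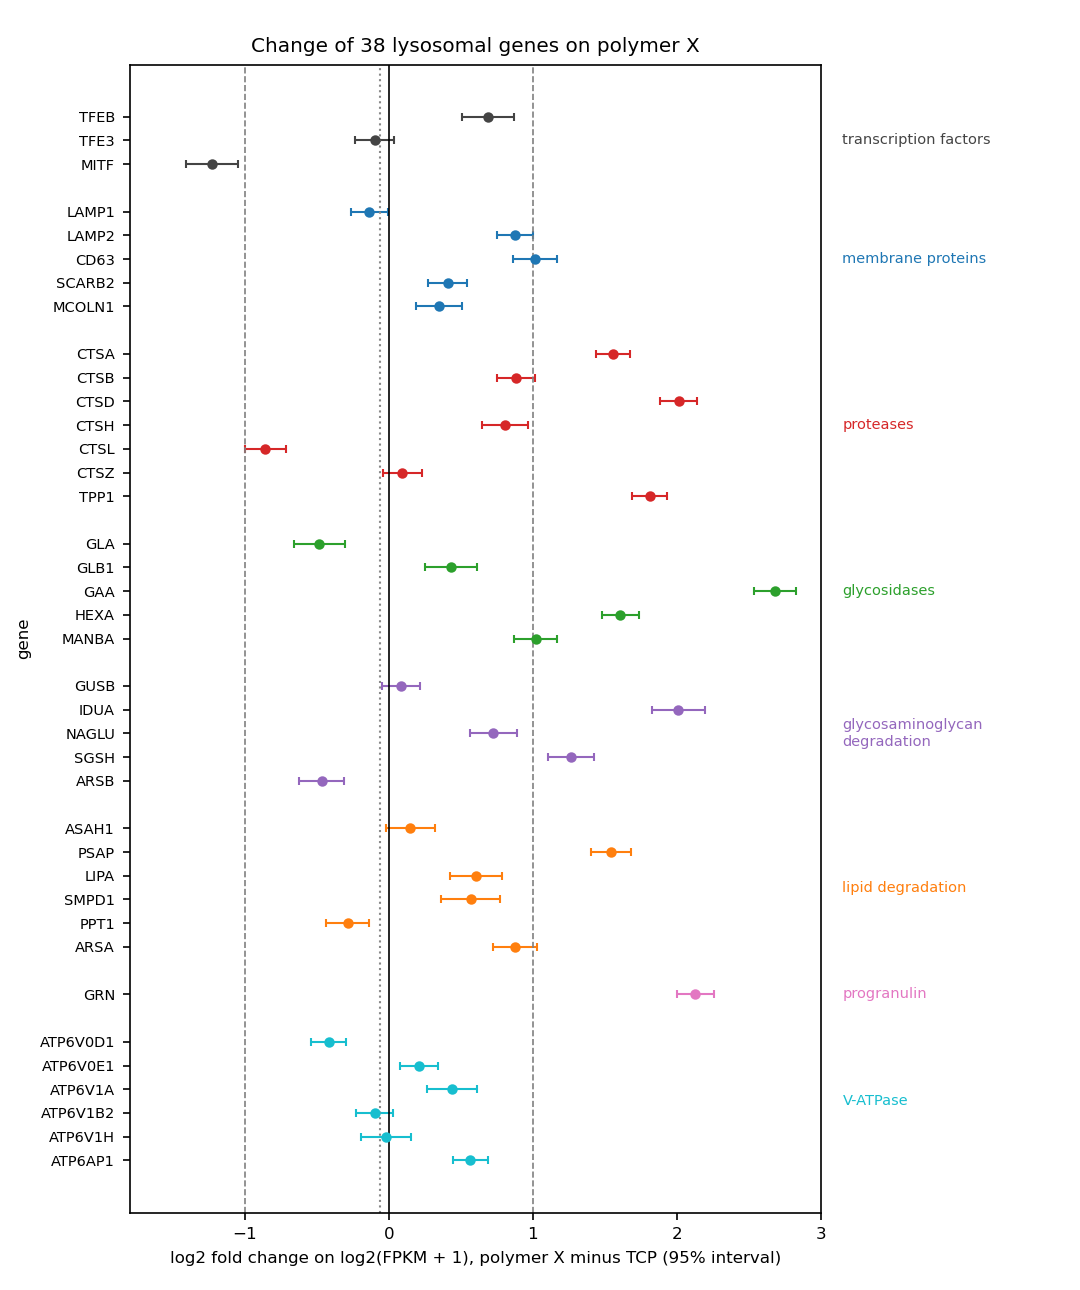
Log2 fold change of the 38 tested genes on log2(FPKM + 1), polymer X minus TCP, by role, with 95% intervals from limma (2 libraries per group). Dashed lines mark the fold minimum of 1 in either direction and the dotted line the median of all tested genes, -0.06. Hydrolases and GRN extend to 2.68 on the right, V-ATPase components lie between -0.42 and 0.57, and MITF lies at -1.23.

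Set against all 11964 tested genes, 9 of the 38 tested genes lay in the top 10% by log2 fold change. The genes called higher spanned the range of abundance, from SGSH and IDUA with mean FPKM under 8 on polymer X to PSAP, CD63, CTSD and GRN with means of 514, 499, 442 and 418. The 4 last genes were measured with SDs between 1.99 and 20.3 on polymer X (n = 2). Their changes are therefore given by many tags, for CTSD 8888 and 10255 on TCP and 37530 and 37852 on polymer X.

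**Figure D4:**
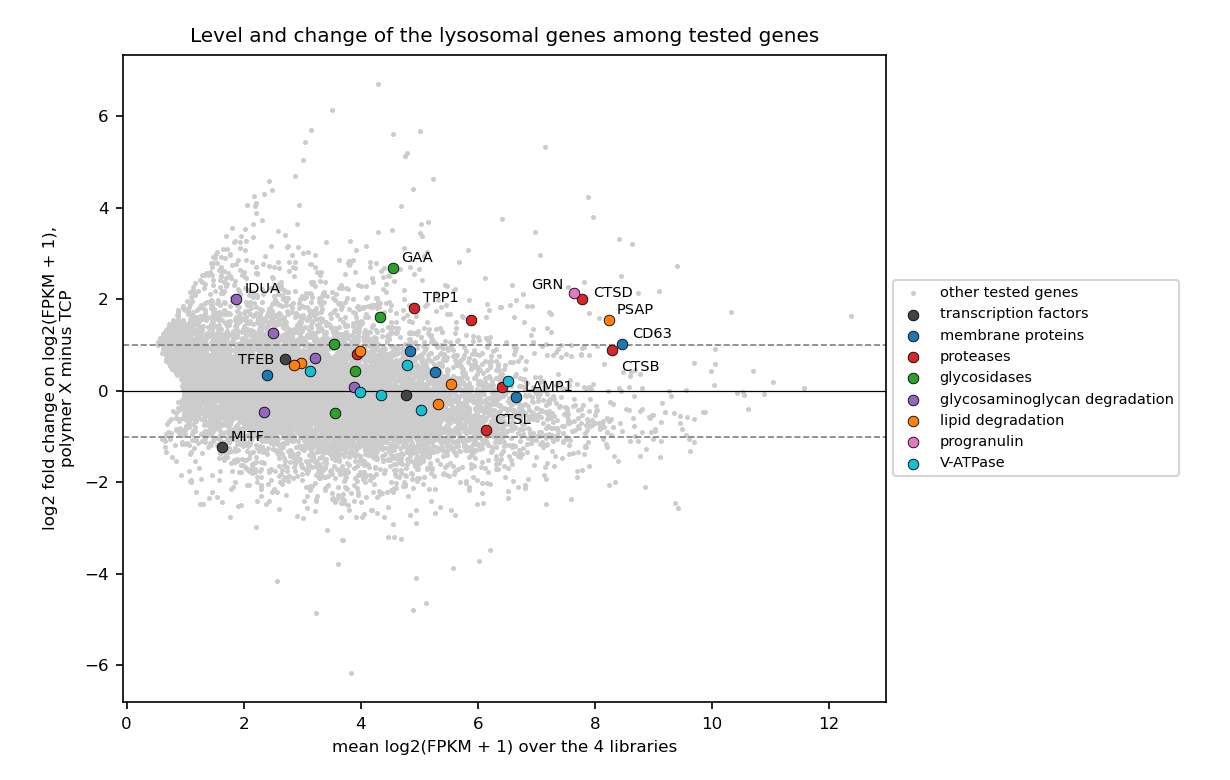
Each tested gene by its mean log2(FPKM + 1) over the 4 libraries and its log2 fold change, polymer X minus TCP, with the 38 lysosomal genes colored by role and the others in grey. Dashed lines mark log2 fold changes of 1 and -1. GRN, CTSD and PSAP stand at high levels with log2 fold changes of 2.13, 2.01 and 1.54.

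Of the 12 genes with any of the 3 motifs in a promoter, 6 were called higher (CD63, CTSA, CTSD, GAA, GRN and TPP1). With or without a motif, 7 of the 26 members with a promoter were called higher, and 10.7% of all tested genes. The share called higher among all tested genes with a motif was not determined. Those 6 genes were 6 of the 7 called members that had a promoter. Any of the 3 motifs was found in 31.6% of the 19 members not called higher, which include the untested NEU1, and in 13.5% of all tested genes. Among the genes with TCACGTGA, GAA and CTSA were called higher, MCOLN1 rose by less than the fold minimum, LAMP1 did not pass the test and ATP6V0D1 fell. In the wider list, TCACGTGA was found in 13 of the 107 genes with a promoter, or 12.1%, and 1 of the 13, PLD3, was called higher, against 10.7% of all tested genes. Any of the 3 was in 31.2% of the 16 genes of that list called higher and in 34.1% of the 91 others. The presence of the motif and the direction of change thus went together in some of these genes and not in others, and no test of this relation was made.

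Since the tags were counted without regard to strand, genes that overlap share tags. By the coordinates of the table, 5 of the 39 genes overlap another symbol (CTSA, GLA, GLB1, IDUA and SGSH), 4 of them on the opposite strand. Exon overlaps were also measured in the GENCODE annotation of GRCh38, as shares only. There, CTSD shares 54.9% of its exon bases with AC068580.4 on the same strand, TPP1 14.2% with AC091564.7 on the same strand, HEXA 10.7% with AC009690.2 on the opposite strand and 10.2% with AC009690.1 on the same strand, and CD63 10.3% with AC009779.2 on the opposite strand. NAGLU shares 14.9% with AC067852.1 on the same strand, and CTSA 10.6% with AL008726.1 on the opposite strand. These 7 neighbors have no values in the table. PPT1 shares 27.3% of its exon bases with CAP1 on the opposite strand, whose FPKM was 151 and 149 on TCP and 75.6 and 74.8 on polymer X. CTSA shares 8.55% with PLTP, whose FPKM was 4.31 and 4.52 on TCP and 13.9 and 12.9 on polymer X, and 10.4% with NEURL2, which was at 2.05 and 1.37 on polymer X. IDUA shares 5.6% with SLC26A1, with values of 0.378 and 0.401 on TCP and of 1.76 and 2.28 on polymer X. These neighbors were named after their values were seen, and their part in the values of the members was not tested. Of the 39 genes, 23 have more than 1 transcript in the table, which also share tags. With the longest transcript of each symbol, the same 11 genes were called higher.

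In the wider list, all 143 genes were found, 122 were tested, 23 were called higher and 1 was called lower, against 10.7% and 9.45% of all tested genes. Without the fold minimum, 68 rose and 25 fell, against 37.4% and 43.6%. The median log2 fold change was 0.33, with 0.17 for no filter and 0.20 for a mean FPKM of at least 5, and 7 of the tested genes passed the filter through the polymer X libraries only. Without these 7 genes the median was 0.22. Of these 7, CTSO, LAPTM5, GPNMB and SLC15A3 are among the 23 called higher, and had to be high on polymer X to be tested.

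Of the 14 other proteases, 11 were tested and 5 were called higher, against 10.7% of all tested genes. DPP7, a dipeptidyl peptidase, had FPKM values of 0.618 and 1.22 on TCP and of 9.95 and 10.7 on polymer X, with a log2 fold change of 2.58 (adjusted p = 1.3e-07). CTSO rose by 2.30 from 0.490 and 0.442 to 6.69 and 5.77, and passed the filter through polymer X only. Its log2 fold change was 3.48 with a pseudocount of 0.1. CTSF, cathepsin F, rose by 1.84. Of the 9 cystatins, inhibitors of cysteine cathepsins, 2 were tested. CST3, the secreted cystatin C, rose from 157 and 151 to 472 and 457 (log2 fold change 1.59, adjusted p = 2e-08). The CTSB level in FPKM was 1.33 and 1.42 times that of the cytosolic inhibitor CSTB on TCP and 2.37 and 2.49 times on polymer X. CSTB was chosen after its values were seen, and its own log2 fold change of 0.06 did not pass the test (adjusted p = 0.37). Set beside CST3 instead, CTSB went the other way. With FPKM values of 230 and 231 on TCP and of 429 and 425 on polymer X, CTSB lay above CST3 on TCP and below it on polymer X.

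Of the 17 other carbohydrate hydrolases, 16 were tested and 4 were called higher, where the share over all tested genes was 10.7%. FUCA1, alpha-L-fucosidase, rose by 1.82, SUMF1, the enzyme that activates sulfatases, by 1.18, and HEXDC, a hexosaminidase, by 1.16. Of the 15 other lipid and nucleic acid hydrolases and lipid transfer proteins, 10 were tested and 3 were called higher, against the same 10.7%. PLD3, an endolysosomal nuclease, rose by 2.01, RNASET2, the acid ribonuclease, by 1.83, and NPC2, the cholesterol transfer protein of the lumen, by 1.28. RNASET2 had the highest level of these, with FPKM values of 44.9 and 42.2 on TCP and of 154 and 161 on polymer X.

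The other membrane proteins and transporters had 7 of 31 genes called higher, against 10.7% over all tested genes. Of the 31, 5 passed the filter through polymer X only, and so had to be high there to be tested. They include LAPTM5, GPNMB and SLC15A3 of the 7 called genes, the last named after its values were seen. TPCN1, a cation channel of endosomes and lysosomes, had FPKM values of 6.80 and 6.71 on TCP and of 39.5 and 44.7 on polymer X. Its log2 fold change was 2.47 with a standard error of 0.07 (adjusted p = 4.5e-09). LAPTM5 was at 0.163 and 0.0400 on TCP and at 2.85 and 3.77 on polymer X, and GPNMB at 0.0770 and 0.0490 on TCP and at 2.69 and 2.66 on polymer X. Their log2 fold changes of 1.96 and 1.79 were 4.14 and 4.09 with a pseudocount of 0.1.

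None of the other V-ATPase genes was called with limma, against the shares of 10.7% and 9.45%. In the V1 sector, 8 of 10 genes were tested, of which 3 rose and 2 fell, against 37.4% and 43.6% of all tested genes, and 6 had an unadjusted p under 0.05, against 82.0%. ATP6V1B1, an isoform of the B subunit, had the largest change, at 0.84 (adjusted p = 1.3e-05), from 0.650 and 0.533 to 1.77 and 1.94, and passed the filter through polymer X only. Its log2 fold change was 1.503 with a pseudocount of 0.1, under which it was called, and 0.42 with quantile normalization. In the V0 sector and its accessory proteins, 7 of 9 genes were tested, of which 3 rose and 1 fell, against 37.4% and 43.6%, and 4 had an unadjusted p under 0.05, against 82.0%. ATP6V0A1, the a1 isoform of the membrane subunit, rose by 0.96 and was called with a pseudocount of 0.1 and with quantile normalization, where its log2 fold change was 1.09. The 2 medians were 0.11 and 0.11, and 0.37 and 0.29 with quantile normalization.

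Among 16 genes of enzyme delivery, none was called with limma, against 10.7% and 9.45% of all tested genes called higher and lower. Of the 16, 4 rose and 9 fell, against 37.4% and 43.6%, and 14 had an unadjusted p under 0.05, against 82.0%. Their median log2 fold change was -0.25, with 4 genes above 0, and it was -0.19 with quantile normalization, with 7 above 0. CLN6, an endoplasmic reticulum protein involved in the exit of lysosomal enzymes, fell from 28.6 and 27.4 to 14.8 and 14.1, a log2 fold change of -0.91 (adjusted p = 6e-07).

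In TFEB control and nutrient sensing, 21 of 22 genes were tested, and 3 were called higher and 1 lower, against 10.7% and 9.45% of all tested genes. FLCN encodes folliculin, which acts on Rag GTPases, and had FPKM values of 5.25 and 6.65 on TCP and of 16.7 and 17.9 on polymer X. Its log2 fold change was 1.40 with a standard error of 0.09 (adjusted p = 7.5e-07). The Rag GTPase genes RRAGD and RRAGA rose by 1.05 and 1.02. MTOR, the kinase of mTORC1, fell from 12.9 and 13.4 to 6.10 and 5.29. The log2 fold change of MTOR was -1.08 with a standard error of 0.07 (adjusted p = 9.5e-07), and it was -0.99 without polymer X replicate 2, which ended the call.

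**Figure D5:**
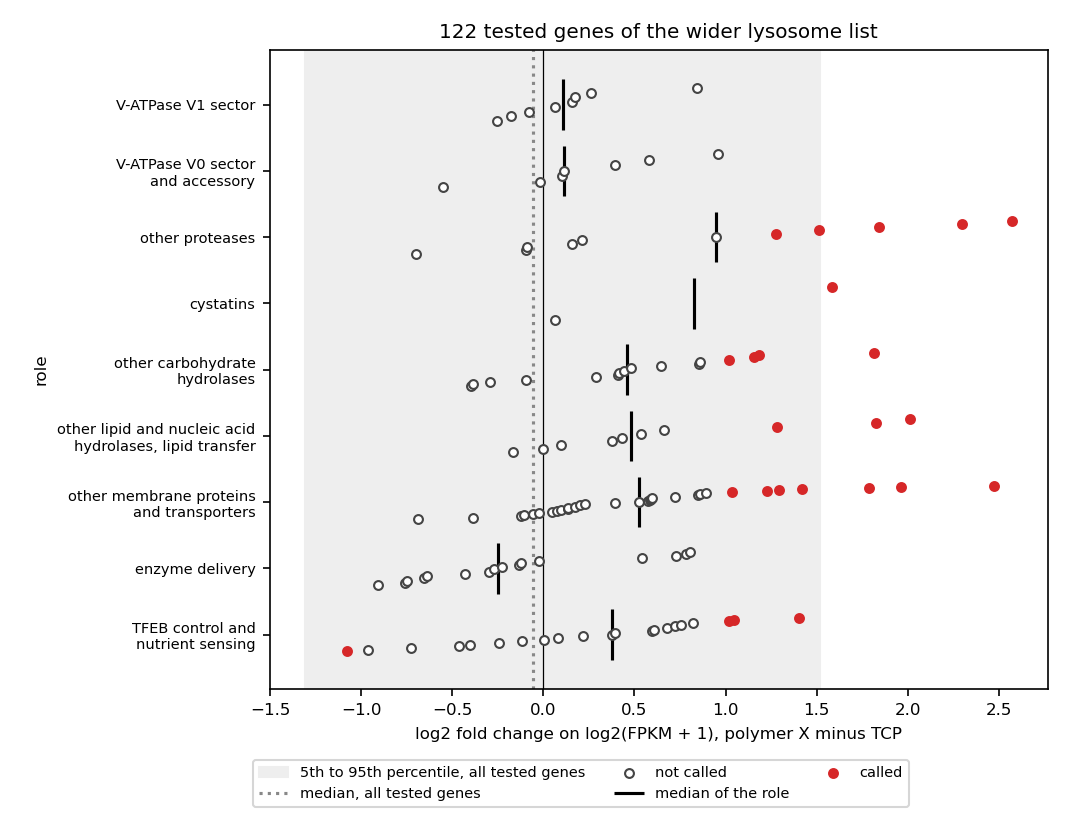
Log2 fold change of the 122 tested genes of the wider list on log2(FPKM + 1), polymer X minus TCP, by role, with filled points for called genes and a black bar for each role's median. The grey band spans the 5th to 95th percentile of all tested genes, from -1.31 to 1.52. Called genes lie mainly among hydrolases and membrane proteins, and the median of enzyme delivery is at -0.25.

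Several genes above are also highly expressed in macrophages or fibroblasts, so markers of other cell types were read in the same libraries. Of 10 macrophage markers none passed the filter, and their summed FPKM was 0.466 and 0.266 on TCP and 1.11 and 1.86 on polymer X. TYROBP and MARCO were listed at 0 in all 4 libraries, as was AIF1, which the table places on a haplotype of chromosome 6 like NEU1 and which is therefore not read. By group mean, FCER1G was the most abundant of the 10 on polymer X, with 0.257 and 0.968. PTPRC was at 0.00500 and 0 on TCP and at 0.468 and 0.530 on polymer X. Of 5 endothelial markers none passed the filter, with sums of 0.509 and 0.478 on TCP and of 0.855 and 0.628 on polymer X. Among them, PECAM1 was at 0 in both TCP libraries and at 0.573 and 0.458 on polymer X, and KDR at 0.476 and 0.438 on TCP and at 0.215 and 0.110 on polymer X. Of 8 fibroblast markers, 5 were tested and 4 were called higher (LUM, DCN, COL3A1 and COL1A2), against 10.7% of all tested genes. LUM, DCN and COL3A1 passed the filter through polymer X only. COL1A1 fell, from 8.21 and 8.48 to 3.81 and 3.77 (log2 fold change -0.96, adjusted p = 9.3e-07). The summed FPKM of the 8 was 17.1 and 17.8 on TCP and 86.7 and 76.6 on polymer X. COL3A1 was listed at 0 in TCP replicate 1 and DCN in TCP replicate 2. COL1A2 was the most abundant on polymer X, at 45.8 and 42.2. PDGFRA was at 0.103 and 0.084 on TCP and at 0.254 and 0.291 on polymer X. PDGFRB was at 0.106 and 0.083 on TCP and at 0.115 and 0.0260 on polymer X. THY1 was at 0.139 and 0.184 on TCP and at 0.0490 and 0 on polymer X. The part of these genes in the lysosomal values was not tested. Of 10 epithelial and SKOV3 markers, 7 were tested. ERBB2, which SKOV3 is known to carry in extra copies, was at 198 and 206 on TCP and 913 and 860 on polymer X, KRT8 at 262 and 269 on TCP and 146 and 143 on polymer X, and PAX8 at 48.8 and 50.5 on TCP and 102 and 108 on polymer X. EPCAM was called higher, through polymer X values of 1.39 and 1.33 against 0.168 and 0.104 on TCP, as were ERBB2 and PAX8. MSLN rose by 0.55, KRT8 fell by 0.87, KRT7 by 0.76 and KRT18 by 0.44, while KRT19, WT1 and MUC16 were not tested. In bulk samples, a change in the share of cells and a change in RNA per cell cannot be told apart.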

How the data were processed

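RNA-seq libraries of SKOV3 cells on TCP (n = 2) and of polymer X spheroids (n = 2) were analyzed. The FPKM values that the authors deposited were produced with HOMER from exon tags of hg19 RefSeq transcripts counted on both strands, and their notes also name STAR 2.4.0 and DESeq without saying what each was used for here. Where a symbol had several transcripts, the one most abundant on average over the 4 libraries represented it. R 4.3.3 and its package limma 3.58.1 were used for the comparison described above, and the moderated variance followed a trend on level. Tables, motif counts and figures were made with Python 3.11.15, pandas 2.3.3, numpy 2.4.6 and matplotlib 3.10.9, and the test was tested on simulated data. The members and lists were chosen with earlier results of these data known, and the ratios between genes, the counts without a fold minimum under other settings and the summed FPKM were added after values had been seen. In each role of the wider list, the text names up to 3 called genes per direction with the largest change. Where none was called, it names the gene with the largest change. CSTB, CTSV and SLC15A3 fall outside this rule. Alternatives were another pseudocount, other filters, scalings, transcripts and fold minima, a replicate block, no variance trend and leaving out each library.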

Additional observations from a re-analysis of the deposited data

How the results depend on the processing

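The 11 members called higher and MITF kept their direction under every alternative in which they were tested. The number called higher was 14 with quantile normalization, which added ARSA, CTSB and LAMP2, and 10 with a mean FPKM of at least 5, which left out IDUA. Lower members were then 0, as MITF did not pass this filter. It was also 10 without TCP replicate 1 or polymer X replicate 1, each of which lost MANBA, and without TCP replicate 2, which lost CD63. With quantile normalization, LAMP1 and PPT1 changed sign, to log2 fold changes of 0.209 and 0.00885, the latter close to 0, as did TFE3, ATP6V1B2 and ATP6V1H; of these 5, only PPT1 had passed the test, and the cause was not tested. ATP6V1H changed sign with scaling to a common median and without TCP replicate 2 or polymer X replicate 2 as well.

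Without a fold minimum, 4477 genes were higher and 5212 lower, among them 25 and 6 members and 68 and 25 genes of the wider list. At a minimum of 0.5 these were 2829 and 3195, 20 and 2, and 51 and 11. With a mean FPKM of at least 5, fewer genes were tested, and the counts fell more on the higher side. Called higher were 702 genes, against 1285, and called lower 960, against 1131. At an adjusted p under 0.05, 2498 were higher, against 4477, and 4278 lower, against 5212. Of the calls, 42.2% were then higher, against 53.2%. The wider list had 3 genes called lower with a pseudocount of 0.1 and 2 with quantile normalization, and between 0 and 1 with a library left out.

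The median of the members was 0.62 with a pseudocount of 0.1, 0.62 with quantile normalization, 0.61 with scaling to a common median and between 0.51 and 0.59 with a library left out. That of the wider list was 0.35 with the pseudocount, 0.17 with no filter, 0.20 with a mean FPKM of at least 5, 0.37 with median scaling and between 0.27 and 0.37 with a library left out. That of all tested genes was -0.20 with a mean FPKM of at least 5, 0 with no filter, -0.02 with median scaling and between -0.08 and -0.04 with a library left out. The ratio of summed FPKM was 2.07 with median scaling. The cause of these differences was not tested. A group left with 1 library was assumed to vary like the other.

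With the replicate block, calls stayed at 1285 higher and 1131 lower over all genes, 11 and 1 for members and 23 and 1 for the wider list. Without a fold minimum, the block took the members from 25 to 26 higher, with ASAH1, and from 6 to 7 lower, with LAMP1. The libraries share only a number, and deviations of same-numbered libraries correlated at 0.09. With 2 libraries per group, the results describe these libraries.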
